A study of Mus musculus with 2 samples.

Results

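The 10 genes studied here belong to the antioxidant defence and were followed through the cell types of the newborn mouse lung. They were chosen by name as the superoxide dismutases Sod1, Sod2 and Sod3, catalase (Cat), the glutathione peroxidases Gpx1 and Gpx3, the peroxiredoxins Prdx1 and Prdx6, thioredoxin reductase Txnrd1 and the quinone reductase Nqo1. All 10 members had a row in the tables of both batches, which held 23977 genes in Batch 1 and 25721 in Batch 2. Batch 1 and Batch 2 were each prepared from the whole lung of 1 female wild-type C57BL/6J mouse at postnatal day 1 (PND1) by Drop-seq, in which beads in droplets tag each transcript with a cell barcode and a unique molecular identifier (UMI). No treatment or transgene is named for either mouse, and red cells had been lysed during dissociation. No sample from before birth was included, so levels after birth were compared between cell types and not with levels before birth. With 1 mouse per batch, a difference between batches cannot be told apart from a difference between mice.

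The lung passes at birth from the low oxygen of the fetus to air, which reaches the alveolar epithelium through the airways. Superoxide dismutases turn superoxide into hydrogen peroxide in the cytosol (Sod1), in mitochondria (Sod2) or outside cells (Sod3). Hydrogen peroxide and lipid peroxides are then reduced by catalase in peroxisomes, by glutathione peroxidases, which are selenoproteins in the case of Gpx1 and the secreted Gpx3, and by peroxiredoxins. Prdx1 takes its electrons from thioredoxin, which Txnrd1 recharges, whereas Prdx6 uses glutathione and also acts on the phospholipids of surfactant. The factor Nrf2, encoded by Nfe2l2 and held back by Keap1, induces several of these genes through antioxidant response elements.

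Cells with more than 10% of UMIs from mitochondrial genes were left out, which removed 1 cell of Batch 1 and 1940 of Batch 2 and left 2388 and 5615 cells. These 8003 cells held 4432553 and 18232639 UMIs, with a median of 1386.5 UMIs per cell in Batch 1 and 2014 in Batch 2, and the batches shared 0 cell barcodes. Cells were grouped on genes other than the members and other antioxidant genes into 41 clusters, and 23 cell types were named from fixed markers, such as AT1-like cells from Ager, Hopx and Rtkn2 and AT2-like cells from the surfactant genes. A cluster that scored about equally for AT1 and AT2 markers was called AT1/AT2-like, and its cells were the deepest of the types compared, with a median of 4053 UMIs in Batch 1 and 6356 in Batch 2. A cluster of 100 cells, 9 in Batch 1 and 91 in Batch 2, took the ciliated name by its scores, yet the club genes Scgb1a1, Scgb3a2 and Cyp2f2 were among its 10 leading genes beside the ciliated genes Dynlrb2, Foxj1 and Ccdc153. In its Batch 2 cells Foxj1 was detected in 78.0% and Scgb1a1 in 92.3%, against 0 and 54.1% of B lymphocyte-like cells, so it is called here the mixed airway cluster and not ciliated cells. The name rests on Batch 2. In the 9 cells of Batch 1 Foxj1 was detected in 88.9%, Scgb3a2 in 33.3% and Cyp2f2 in 22.2%. Scgb3a2 and Cyp2f2 were detected in 73.6% and 60.4% in Batch 2, so the mix of cells may differ between batches. No doublets were called. As a measure of free RNA, Sftpc, made by AT2 cells, was detected in 41.4% of B lymphocyte-like cells in Batch 1 and in 89.2% in Batch 2. The 18 types with at least 10 cells in each batch, 7502 cells in all, entered the tests. Orders of types and highest or lowest levels are over these 18 types unless a type is said to be described only, as were the mixed airway cluster and the club-like cells (4 in Batch 1 and 29 in Batch 2).

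The promoters of the members were searched for the core of the antioxidant response element, the sequence through which Nrf2 acts. RefSeq promoter windows of GRCm38.p6, from 250 bases before to 50 after a start site, covered 8 members with 10 windows, and no window of Sod3 or Prdx6 was used here. The core letters TGACNNNGC, read on both strands, occurred in 3 of the 10 windows and in 4071 of all 32851 windows (12.4%). The 3 windows are shown 5′ to 3′ on the strand of the gene, with the match in capitals, which in each case lies on the opposite strand. They are on the forward strand at chr4:116685349-116685648 for Prdx1, chr10:82858956-82859255 for 1 of 3 Txnrd1 windows and chr16:90220512-90220811 for Sod1, and their matches begin 133, 92 and 56 bases before the start site.
Prdx1: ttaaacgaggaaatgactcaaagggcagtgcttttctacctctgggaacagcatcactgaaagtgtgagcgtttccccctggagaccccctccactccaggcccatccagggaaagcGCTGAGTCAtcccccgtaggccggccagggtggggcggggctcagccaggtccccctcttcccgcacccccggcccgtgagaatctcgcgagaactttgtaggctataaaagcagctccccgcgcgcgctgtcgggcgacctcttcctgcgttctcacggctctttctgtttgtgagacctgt
Txnrd1: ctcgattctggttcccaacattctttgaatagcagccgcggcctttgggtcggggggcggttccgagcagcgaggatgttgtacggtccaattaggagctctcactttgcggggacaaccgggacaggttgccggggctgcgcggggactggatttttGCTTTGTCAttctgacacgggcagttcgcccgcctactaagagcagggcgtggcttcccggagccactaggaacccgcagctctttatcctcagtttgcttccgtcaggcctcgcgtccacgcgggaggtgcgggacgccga
Sod1: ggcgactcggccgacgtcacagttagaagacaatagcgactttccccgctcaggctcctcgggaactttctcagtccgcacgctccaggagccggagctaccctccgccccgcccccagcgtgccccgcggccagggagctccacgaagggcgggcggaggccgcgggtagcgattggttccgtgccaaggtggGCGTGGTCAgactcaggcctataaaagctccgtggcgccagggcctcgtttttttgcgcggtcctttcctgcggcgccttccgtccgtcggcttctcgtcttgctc
Such a match describes letters in these windows and not a bound site. The other 7 windows, including those of Cat, Gpx1, Gpx3, Sod2 and Nqo1, held no match.

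Levels are given as UMIs of a gene per 10000 UMIs of the type, summed over the cells of a batch, and a gene was called detected in a cell that held 1 or more of its UMIs. In an edgeR fit of the summed counts with batch as the replicate block, 9 of the 10 members passed the filter on low counts and all 9 differed among the 18 types at an adjusted p under 0.05, from 3.2e-16 for Gpx1 to 0.0043 for Sod2. This count has to be read against a background of 67.4% of all genes tested, or 64.2% of the genes that had no part in the clustering. Each type was also compared with the mean of the other 17. Of 162 pairs of member and type, 31 (19.1%) were higher and 18 (11.1%) lower, against 12.3% and 2.59% over all genes. All 49 had the same direction in both batches, but they were called from these same batches, so this is no separate check. Without the 10% of cells with the most UMIs in each type, where some doublets may lie, 48 of the 49 calls remained. Because cells were trimmed within types, this does not bear on a type made up largely of doublets. The scale matters for some types, because library totals in place of TMM moved the median difference of all genes by -1.41 on the log2 scale in erythroid-like, -0.56 in neutrophil-like and -0.36 in AT2-like cells, and by up to 0.39 upwards in mesothelial-like cells. With library totals, 30 pairs were higher and 20 lower.

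**Figure D1:**
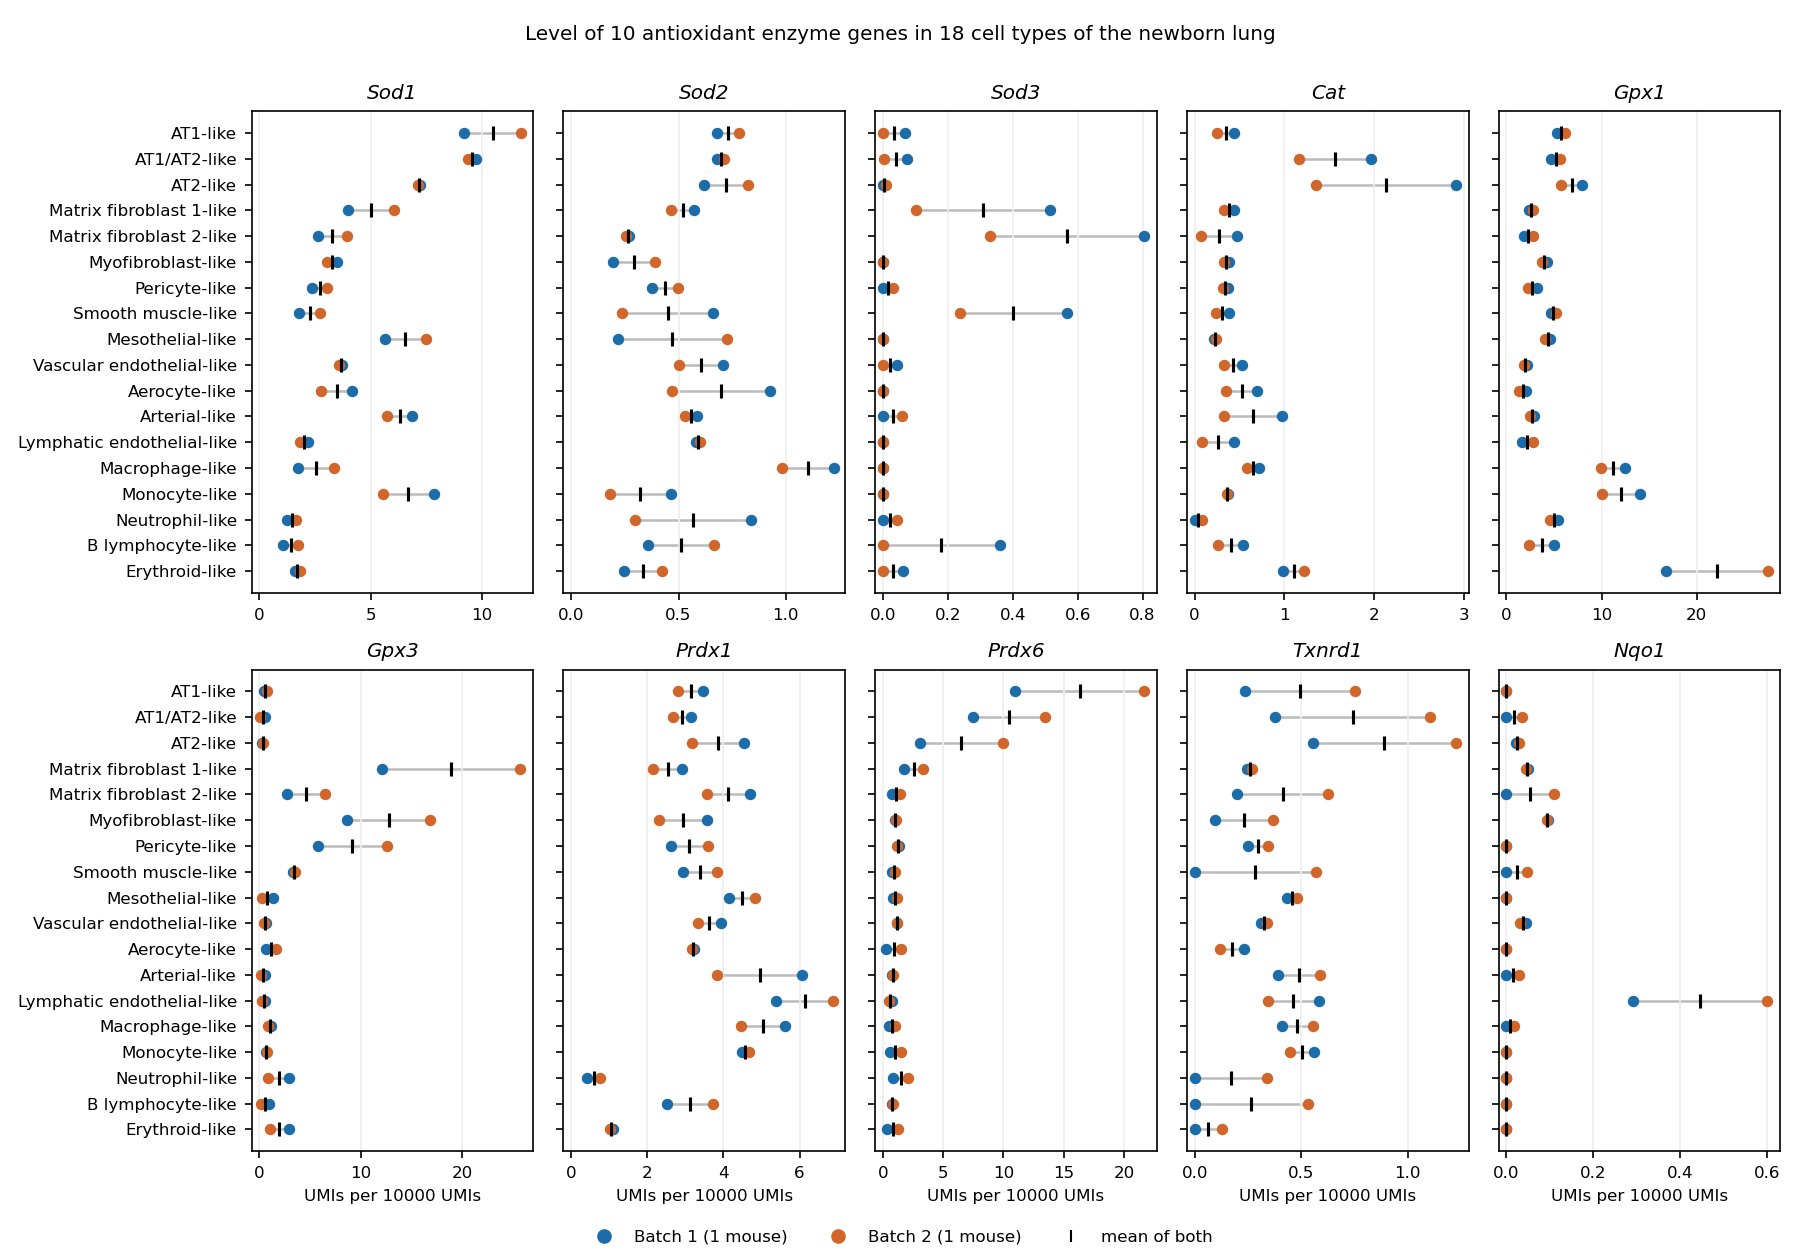
Level of each member in UMIs per 10000 UMIs (x axis, a separate linear scale per gene) in the 18 cell types of the tests (y axis), with 1 point per batch (1 mouse each) and a bar at their mean. Sod1 and Prdx6 are highest in the alveolar epithelial types, Gpx1 in erythroid-like, monocyte-like and macrophage-like cells, and Gpx3 in fibroblast, myofibroblast and pericyte-like cells.

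Sod1, on chromosome 16 (90220754 to 90226329, plus strand, GRCm38), was the most widely detected dismutase, with UMIs in 43.3% of all cells in Batch 1 and 58.7% in Batch 2. AT1-like cells had 9.18 UMIs per 10000 in Batch 1 and 11.8 in Batch 2, AT1/AT2-like cells 9.76 and 9.39, and AT2-like cells 7.23 and 7.14. Neutrophil-like cells had 1.26 and 1.65 and B lymphocyte-like cells 1.08 and 1.73, so that the ranges of these low types lay below those of all 3 alveolar types. The airway types, described only, were as high, with 10.6 and 8.90 in the mixed airway cluster and 7.98 (8 UMIs) and 8.45 in club-like cells. Against the other types, Sod1 was higher in AT1/AT2-like (log2 difference 1.63, SE 0.19, edgeR adjusted p = 9.6e-09), AT1-like (1.59, SE 0.19, 2.4e-08) and AT2-like cells (1.42, SE 0.19, 2.6e-07), and also in monocyte-like cells (0.93, SE 0.23, 0.0026). It was lower in B lymphocyte-like (-1.67, SE 0.35, adjusted p = 0.00096), lymphatic endothelial-like (-1.22, SE 0.31, 0.0078) and smooth muscle-like cells (-0.97, SE 0.27, 0.013). The smooth muscle-like call was lost without the replicate block (adjusted p = 0.066) and with library totals (0.063), and the lymphatic endothelial-like call with a mitochondrial limit of 5% (0.058). With library totals Sod1 was also higher in arterial-like (0.80, 0.012) and mesothelial-like cells (0.90, 0.019) and lower in neutrophil-like cells (-1.37, 0.0024). Levels of AT1-like and AT1/AT2-like cells overlapped between the batches, while those of AT1/AT2-like and AT2-like cells did not.

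Sod2, the mitochondrial dismutase on chromosome 17 (13006846 to 13040063, plus strand), was sparse, with 282 UMIs in Batch 1 and 1425 in Batch 2 over all cells. Macrophage-like cells had 1.22 and 0.98 UMIs per 10000, and AT1-like cells followed with 0.68 and 0.78, AT2-like with 0.62 and 0.82. The difference from the other types was 1.14 on the log2 scale in macrophage-like (SE 0.30, edgeR adjusted p = 0.0042) and 0.96 in AT2-like cells (SE 0.25, 0.0036). In AT2-like cells the difference was 0.59 with library totals (adjusted p = 0.11). The 2 macrophage-like clusters had unlike Sod2 values, which rest on few counts and were not tested. The type as a whole held 12 UMIs in Batch 1 and 60 in Batch 2. The cluster led by Ccl6, Ctss and Ear2 had 1.85 in Batch 1 (39 cells) and 1.08 in Batch 2 (255 cells). The cluster led by the complement genes C1qa, C1qb and C1qc had 0.26 (23 cells) and 0.48 (46 cells). The mixed airway cluster, described only, had 4.73 and 2.74 UMIs per 10000, above the levels of every type tested, and club-like cells had 3.99 (4 UMIs) and 1.52. The mixed airway cluster gave 27.4% of all Sod2 UMIs of Batch 2 with 7.81% of its UMIs.

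Sod3, the extracellular dismutase on chromosome 5 (52363791 to 52371418, plus strand), was counted 96 times in Batch 1 and 68 times in Batch 2, and its UMIs lay mainly in mesenchymal types. Matrix fibroblast 1-like cells held 63 and 21 of them, matrix fibroblast 2-like cells 12 and 9, and smooth muscle-like cells 6 and 5. These counts gave 0.52 and 0.10 UMIs per 10000 in matrix fibroblast 1-like, 0.80 and 0.33 in matrix fibroblast 2-like and 0.57 and 0.24 in smooth muscle-like cells. B lymphocyte-like cells, taken as a type that lacks Sod3, had 2 UMIs in 1 of 29 cells of Batch 1 (3.45% of cells) and 0 in 37 cells of Batch 2, at a median of 1298 and 1415 UMIs per cell. Sod3 was detected in 5.68% and 1.78% of matrix fibroblast 1-like cells, at medians of 1281 and 1664, and in 12.7% and 8.57% of matrix fibroblast 2-like cells, at 1929 and 2279. The reference is small, since even 0 of 37 cells allows a share of cells with a UMI of up to 8.11%. In Batch 2 this limit is above the 1.78% of matrix fibroblast 1-like cells and only just below the 8.57% of matrix fibroblast 2-like cells. In Batch 1 the reference share rests on 1 of 29 cells. The shares were not tested against the reference. All 3 mesenchymal types were higher than the other types with edgeR (adjusted p = 7.0e-05, 2.9e-05 and 0.0021), and the adjusted p in matrix fibroblast 1-like cells was 0.14 with DESeq2. No fold is given, because several types held 0 UMIs. The vascular mural-like cells, described only, had 2 and 17 UMIs, or 1.23 and 0.91 per 10000.

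Cat, on chromosome 2 (103453849 to 103485160, minus strand), encodes the peroxisomal catalase, an enzyme also known from red cells. AT2-like cells had 2.91 UMIs per 10000 in Batch 1 and 1.35 in Batch 2, AT1/AT2-like cells 1.97 and 1.17, and erythroid-like cells 0.98 and 1.22. AT1-like cells had only 0.44 and 0.25, a level like those of matrix fibroblast 1-like (0.43 and 0.33) and vascular endothelial-like cells (0.53 and 0.33). The difference from the other types was 2.75 on the log2 scale in AT2-like (SE 0.23, edgeR adjusted p = 2.2e-12), 2.10 in AT1/AT2-like (SE 0.24, 7.9e-09) and 2.92 in erythroid-like cells (SE 0.33, 2.6e-08). With library totals the erythroid-like difference was 1.48. Hemoglobin transcripts took much of those cells' totals, with 1566 UMIs per 10000 for Hba-a1 alone in Batch 1 and 1547 in Batch 2, and when hemoglobin, surfactant, secretoglobin and mitochondrial genes were left out of the totals erythroid-like cells in place of AT2-like cells had the highest Cat level. Of the AT2-like clusters, the one led by Lyz1 had 3.10 and 1.41, the one led by Nupr1 1.87 (30 cells) and 1.30, and the one led by Gm26870 1.13 in Batch 2. Club-like cells had 1.99 (2 UMIs) and 1.11. Neutrophil-like cells were at the low end with 0 UMIs in 11 cells of Batch 1 and 2 UMIs in 94 cells of Batch 2, a difference that passed with library totals alone (-2.33, adjusted p = 0.038).

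Gpx1, on chromosome 9 (108338903 to 108340343, plus strand), encodes the cytosolic glutathione peroxidase of most cells. Erythroid-like cells had 16.8 UMIs per 10000 in Batch 1 and 27.5 in Batch 2, monocyte-like cells 14.1 and 10.0, macrophage-like cells 12.4 and 9.93, and AT2-like cells 7.98 and 5.75. At the other end were vascular endothelial-like cells with 2.16 and 1.81 and aerocyte-like cells, a capillary type named here from markers such as Car4 and Ednrb, with 2.08 and 1.30. The border between these types is not sharp, because a cluster of 237 vascular endothelial-like cells also had Prx, Car4 and Ednrb among its leading genes, and its Gpx1 level was 1.93 and 1.42. The erythroid-like range lay above those of all other types. Free RNA of red cells may add to the Gpx1 of other types, most of all in Batch 1, which was not tested. Hba-a1 had 126 and 19.8 UMIs per 10000 in vascular endothelial-like cells. Against the other types Gpx1 was higher in erythroid-like (log2 difference 3.91, SE 0.17, edgeR adjusted p = 1.1e-19, and 2.46 with library totals), monocyte-like (1.57, SE 0.22, 8.2e-07), macrophage-like (1.43, SE 0.22, 2.1e-06) and AT2-like cells (1.10, SE 0.21, 0.00010).

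Low Gpx1 was shared by the endothelial types tested. The log2 difference was -1.84 in aerocyte-like (SE 0.35, edgeR adjusted p = 0.00019), -1.27 in vascular endothelial-like (SE 0.27, 0.00034), -1.25 in lymphatic endothelial-like (SE 0.32, 0.0087) and -1.08 in arterial-like cells (SE 0.30, 0.013). The arterial-like call was lost with library totals (adjusted p = 0.070). Of the vascular endothelial-like clusters, the one led by Fbln2 and Vwf was highest in each batch, with 3.06 and 4.34 UMIs per 10000. Gpx1 was also lower in pericyte-like (-1.04, SE 0.30, adjusted p = 0.014), matrix fibroblast 2-like (-0.99, SE 0.28, 0.014) and matrix fibroblast 1-like cells (-0.78, SE 0.25, 0.024). Without the replicate block the adjusted p was 0.050 in pericyte-like and 0.089 in matrix fibroblast 1-like cells, and both calls were lost. Within the macrophage-like cells, the complement cluster had 15.6 and 7.03 UMIs per 10000 and the Ccl6 cluster 10.4 and 10.5, and the order of the clusters differed between batches.

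Gpx3, on chromosome 11 (54902453 to 54910377, plus strand), encodes the secreted glutathione peroxidase of plasma. It was the member most concentrated in one type, as matrix fibroblast 1-like cells held 77.6% of its UMIs in Batch 1 and 68.6% in Batch 2, with 27.6% and 11.2% of all UMIs. They had 12.1 UMIs per 10000 in Batch 1 and 25.7 in Batch 2. Myofibroblast-like cells followed with 8.67 and 16.8, pericyte-like cells with 5.74 and 12.6, matrix fibroblast 2-like cells with 2.68 and 6.47 and smooth muscle-like cells with 3.31 and 3.55. Each of the first 4 types was higher in Batch 2 than in Batch 1 while the level over all cells was 4.31 and 4.20. The difference between batches was also seen within single clusters of matrix fibroblast 1-like cells, since the cluster led by Mfap4 had 12.5 and 24.2 and the cluster led by Inmt 9.47 and 26.2. These clusters were themselves split unevenly by batch, with 707 and 126 cells in the Mfap4 cluster and 27 and 826 in the Inmt cluster.

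The log2 difference of Gpx3 from the other types was 4.12 in matrix fibroblast 1-like (SE 0.26, edgeR adjusted p = 2.7e-15), 3.28 in myofibroblast-like (SE 0.29, 5.0e-11), 2.79 in pericyte-like (SE 0.31, 7.0e-09), 1.94 in matrix fibroblast 2-like (SE 0.34, 4.7e-05) and 1.30 in smooth muscle-like cells (SE 0.38, 0.018). The smooth muscle-like call was lost without the replicate block (adjusted p = 0.066) and with DESeq2 (0.11). Erythroid-like cells were higher with TMM (2.02, SE 0.41, 0.00070) and not with library totals (0.59, adjusted p = 0.32). Gpx3 was lower in arterial-like (-2.77, SE 0.70, 0.0053), AT1/AT2-like (-2.66, SE 0.56, 0.00029), AT2-like (-1.68, SE 0.46, 0.0053) and vascular endothelial-like cells (-1.40, SE 0.43, 0.015, but 0.072 without the replicate block). Detection in matrix fibroblast 1-like cells was 70.0% and 90.9% of cells at a median of 1281 and 1664 UMIs, against 17.2% and 2.70% in B lymphocyte-like cells, the reference taken to lack Gpx3, at 1298 and 1415. The reference had 0.90 and 0.13 UMIs per 10000, and in Batch 1 the 3 alveolar epithelial and 4 endothelial types were all below it. In Batch 2, where the reference held 1 UMI of Gpx3, all of these types except AT1/AT2-like cells (0.09) were above it.

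Prdx1, on chromosome 4 (116685544 to 116700822, plus strand), was highest among the types tested in lymphatic endothelial-like cells, with 5.39 and 6.87 UMIs per 10000. Of the types described only, the mixed airway cluster had 8.75 and 6.00 and club-like cells 5.98 (6 UMIs) and 7.71. Macrophage-like cells had 5.61 and 4.47 and arterial-like cells 6.06 and 3.84, and the ranges of these types and of lymphatic endothelial-like cells overlapped. Erythroid-like cells had 1.11 and 1.01 and neutrophil-like cells 0.42 and 0.76. In neutrophil-like cells Prdx1 was lower than in the other types (log2 difference -1.68, SE 0.36, edgeR adjusted p = 0.00076). The differences of lymphatic endothelial-like (0.77, SE 0.24, adjusted p = 0.035), macrophage-like (0.68, SE 0.22, 0.025) and AT2-like cells (0.68, SE 0.21, 0.015) passed the test, and without the replicate block none of them did (adjusted p = 0.093, 0.073 and 0.053). With library totals the AT2-like value was 0.28 (adjusted p = 0.43). The neutrophil-like cluster led by Camp and Ngp, genes of immature granules, had 0.14 UMIs per 10000 and was found in Batch 2 alone, whereas the cluster led by Retnlg had 0.42 and 1.76.

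Prdx6, on chromosome 1 (161240112 to 161251219, minus strand), is a peroxiredoxin with a phospholipase activity and a known part in surfactant turnover. AT1-like cells had 11.0 UMIs per 10000 in Batch 1 and 21.7 in Batch 2, AT1/AT2-like cells 7.45 and 13.5, and AT2-like cells 3.04 and 9.94. Beyond the alveolar epithelium, matrix fibroblast 1-like cells were next with 1.73 and 3.35, and lymphatic endothelial-like cells were lowest with 0.73 and 0.52. Prdx6 was higher in Batch 2 in 16 of the 18 types, and its level over all cells was 2.51 and 7.19. Within each batch the order AT1-like, AT1/AT2-like, AT2-like was the same, although the ranges over the 2 batches overlapped. Club-like cells, described only, had 23.9 (24 UMIs) and 29.3, above the alveolar types in each batch, and the mixed airway cluster had 2.84 and 14.6.

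Against the other types, the log2 difference of Prdx6 was 3.63 in AT1-like (SE 0.20, edgeR adjusted p = 2.4e-17), 3.15 in AT1/AT2-like (SE 0.21, 4.1e-15) and 2.51 in AT2-like cells (SE 0.22, 5.7e-12). The gene was also higher in matrix fibroblast 1-like cells (0.80, SE 0.25, 0.017) and lower in lymphatic endothelial-like (-1.68, SE 0.48, 0.021), arterial-like (-1.39, SE 0.41, 0.021) and macrophage-like cells (-1.05, SE 0.36, 0.034). None of these last 4 calls held without the replicate block (adjusted p = 0.29, 0.16, 0.26 and 0.27), while the 3 alveolar calls did. The counts are uncertain in one respect, because the reads were aligned with a single location reported and the near-identical copy Prdx6b held 293 UMIs in Batch 1 and 1695 in Batch 2, or 26.3% and 12.9% of the number for Prdx6.

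Txnrd1, on chromosome 10 (82833951 to 82897712, plus strand), had 132 UMIs in Batch 1 and 1359 in Batch 2. AT2-like cells had 0.56 and 1.23 UMIs per 10000 and AT1/AT2-like cells 0.38 and 1.11. Of the types described only, the mixed airway cluster had 0.24 (1 UMI) and 1.56, and club-like cells 0 in 4 cells and 1.65 (40 UMIs). AT2-like and AT1/AT2-like cells were higher than the other types tested, by 1.80 (SE 0.31, edgeR adjusted p = 1.5e-05) and 1.38 (SE 0.32, 0.00097) on the log2 scale. The level was higher in Batch 2 in 15 of 18 types, and in Batch 1 alone lymphatic endothelial-like cells, with 4 UMIs, were highest at 0.58. Txnrd1 was the one member whose difference among types was lost without the replicate block (adjusted p = 0.092, against 0.0013 with it).

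Nqo1, on chromosome 8 (107388225 to 107403206, minus strand), a quinone reductase widely used as a readout of Nrf2, was nearly undetected, with 16 UMIs in Batch 1 and 97 in Batch 2. It did not pass the filter on low counts. Lymphatic endothelial-like cells held 2 and 7 of these UMIs (0.29 and 0.60 per 10000), and the mixed airway cluster 2 and 33 (0.47 and 0.23). AT1-like cells had 0 UMIs among 103 and 321 cells, which allows a share of cells with a UMI of up to 2.91% in Batch 1 and 0.935% in Batch 2 by counting error alone and sets no limit on the share of cells that express the gene.

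**Figure D2:**
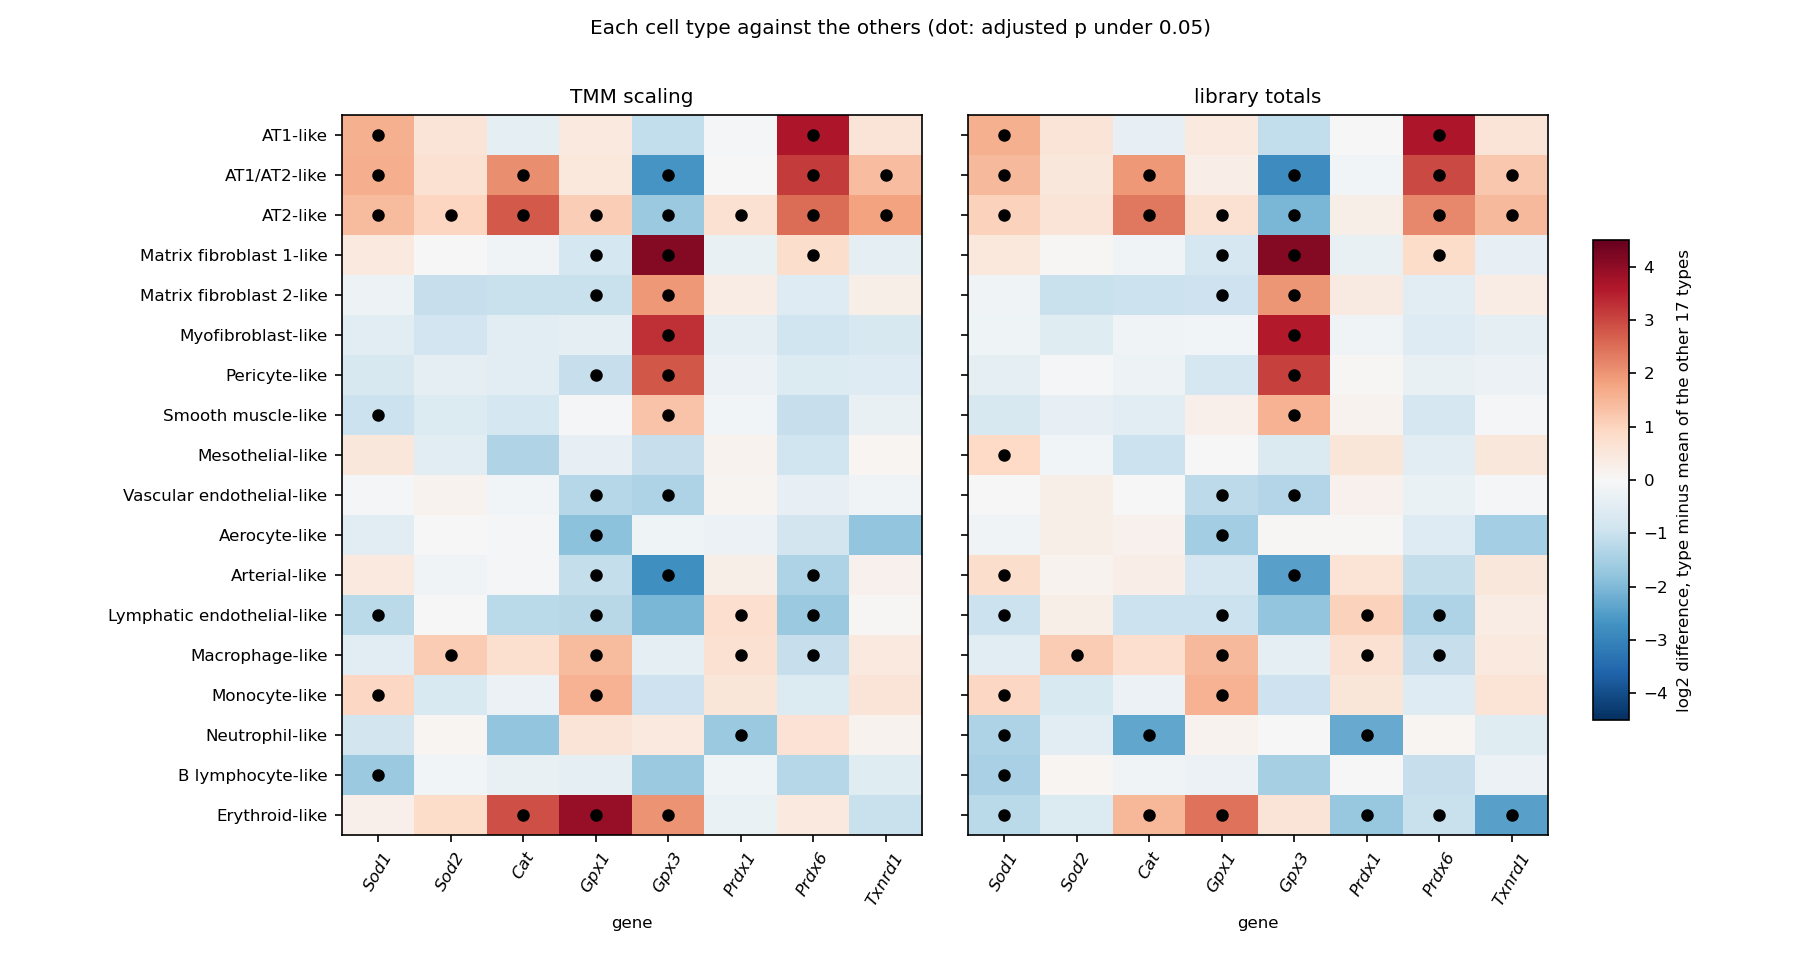
Difference of each cell type (rows) from the mean of the other 17 types for 8 members (columns), as log2 values on a colour scale from edgeR fits with TMM scaling (left) and with library totals (right). Dots mark an adjusted p under 0.05. AT2-like cells hold 7 higher members with TMM and 5 with library totals, and the row of erythroid-like cells is the one that differs most between the panels. Sod3, with 0 UMIs in several types, and Nqo1, which was not tested, are not drawn.

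Read by cell type, AT2-like cells had the largest number of higher members, 7 of the 9 tested with TMM (Sod1, Sod2, Cat, Gpx1, Prdx1, Prdx6 and Txnrd1) and 5 with library totals, where Sod2 and Prdx1 missed the threshold. Of all genes, 20.6% were higher in AT2-like cells with TMM, the largest share of the 18 types, and 12.9% with library totals. Gpx3 was their one lower member on both scales, where 4.41% and 9.12% of all genes were lower. AT1/AT2-like cells had 4 higher members (Sod1, Cat, Prdx6 and Txnrd1) against 20.2% of all genes, and AT1-like cells 2 (Sod1 and Prdx6) against 14.9%. Erythroid-like cells had high Gpx1 and Cat on both scales, where 6.16% of all genes were higher with TMM and 2.23% with library totals. The values of Sod1, Prdx6, Prdx1 and Txnrd1 in that type depended on the scale. Sod1 was at 0.22 with TMM, which did not pass, and lower with library totals (-1.22, edgeR adjusted p = 0.00066), and Prdx6 went from 0.44 to -1.01 (adjusted p = 0.023 with library totals). Prdx1 was at -1.72 and Txnrd1 at -2.43 with library totals, and these were lower on that scale alone. On that scale 34.9% of all genes were lower in erythroid-like cells, so that 4 lower members of 9 are near the background. Mesothelial-like cells had no member called with TMM, where 6.67% of all genes were higher and 2.23% lower.

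The summed level of the 10 members was highest in club-like cells (46.9 UMIs per 10000 in Batch 1 and 56.0 in Batch 2), described only, followed by AT1-like cells with 30.8 and 44.9 and the mixed airway cluster with 31.2 and 39.3. It was 25.01 and 41.2 in matrix fibroblast 1-like cells, where Gpx3 made up 12.1 and 25.7, and lowest in B lymphocyte-like cells with 11.5 and 10.2. At 600 UMIs per cell, an AT1-like cell held on average 1.61 members in Batch 1 and 1.70 in Batch 2. A B lymphocyte-like cell held 0.45 and 0.38, and a vascular endothelial-like cell 0.66 and 0.58.

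Detection followed cell depth as well as level. With all UMIs, AT1/AT2-like cells had the highest mean detection among the 18 types tested of Sod1 (93.8%) and Prdx6 (93.9%), and also of Sod2 (33.0%), Cat (49.0%) and Txnrd1 (30.0%). Of the types described only, the mixed airway cluster was higher for Sod2 (72.4%) and Txnrd1 (34.1%), and club-like cells for Sod2 (59.5%), Cat (54.3%) and Prdx6 (100.0%). When each cell was thinned to 600 UMIs, AT1-like cells came first among the types tested for Sod1 (48.6%, against 43.6% in AT1/AT2-like cells) and for Prdx6 (61.8% against 49.3%). AT2-like cells then came first for Cat (12.1% against 8.20%) and Txnrd1 (5.33%), and macrophage-like cells for Sod2 (7.02%). The mixed airway cluster had 27.2% for Sod2 at that depth, and club-like cells 71.6% for Prdx6. For these 5 members the tested type with the highest thinned detection was also the tested type with the highest level. This was not so for Prdx1 and Nqo1. Their highest level and full-depth detection were in lymphatic endothelial-like cells, and their highest thinned detection in mesothelial-like and AT1/AT2-like cells. Both changes rest on few cells or UMIs and on 1 random draw. Mesothelial-like cells numbered 22 and 11. Before thinning, Nqo1 had 0 and 12 UMIs in AT1/AT2-like and 2 and 7 in lymphatic endothelial-like cells. The types highest in Gpx1 and Gpx3 did not change with depth, at 87.3% and 51.2% for Gpx1 in erythroid-like cells and 80.5% and 59.2% for Gpx3 in matrix fibroblast 1-like cells.

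AT2 cells, which make surfactant, and the flat AT1 cells, across which gas is exchanged, were compared directly as the epithelium that lines the air spaces. Of the 9 members tested 2 differed, where 6.28% of all genes were higher in AT2-like and 7.08% higher in AT1-like cells. Cat was higher in AT2-like cells by 2.97 on the log2 scale (SE 0.40, edgeR adjusted p = 1.1e-06), with 3.13 in Batch 1 and 2.54 in Batch 2. Prdx6 was higher in AT1-like cells (-1.05, SE 0.36, adjusted p = 0.042), with -1.32 and -0.88 in the batches. The Prdx6 call was lost without the replicate block (adjusted p = 0.46), with DESeq2 (0.063), with a mitochondrial limit of 5% (0.057) or none (0.052), and with a cluster resolution of 1 in place of 2 (0.056), whereas Cat passed in all of these. With library totals Prdx6 differed by -1.42 (adjusted p = 0.0034).

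For the other members the test did not pass and the intervals were wide. The 95% interval of the difference was -0.77 to 0.45 for Sod1, -0.38 to 1.09 for Sod2 and -0.03 to 1.29 for Gpx1, so that differences of up to about 1 on the log2 scale cannot be told from none. Prdx1 (0.68, interval 0.05 to 1.31, adjusted p = 0.17) and Txnrd1 (1.15, interval 0.21 to 2.09, 0.10) were higher in AT2-like cells of both batches without passing the adjustment. These intervals hold for TMM alone. With library totals the differences were -0.55 for Sod1, -0.006 for Sod2, 0.23 for Gpx1, 0.28 for Prdx1 and 0.81 for Txnrd1, and none of them passed. Gpx3 was low in both types, with 0.28 and 0.36 UMIs per 10000 in AT2-like and 0.44 and 0.73 in AT1-like cells.

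**Figure D3:**
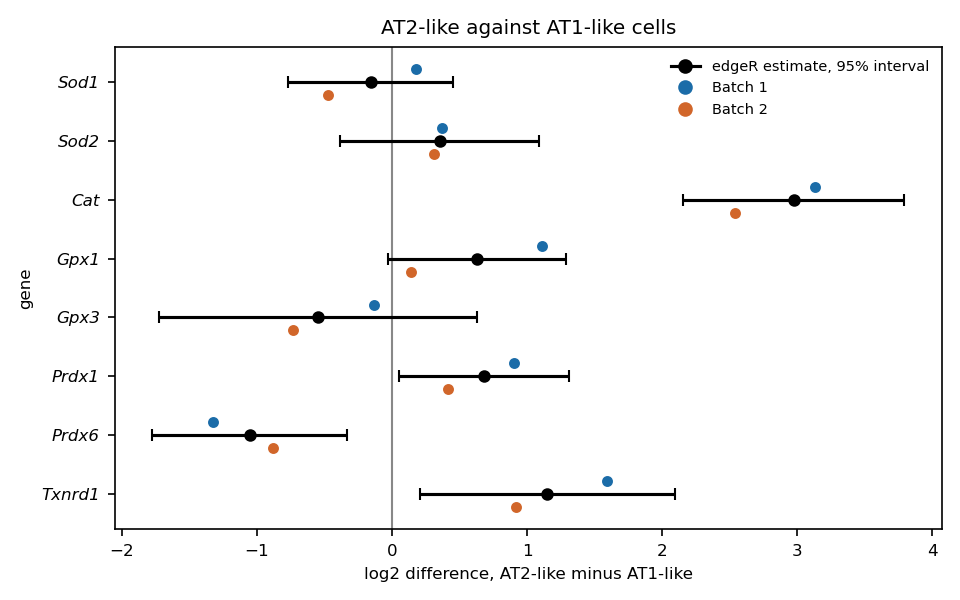
Log2 difference of 8 members between AT2-like and AT1-like cells (x axis, positive where AT2-like cells are higher), with the edgeR estimate and its 95% interval in black and the values of Batch 1 and Batch 2 as coloured points. With TMM scaling, as drawn, Cat at 2.97 lies apart from the rest and Prdx6 lies below 0 in both batches. Sod1 changes sign between the batches on this scale alone. Its level as a share of all UMIs is higher in AT1-like than in AT2-like cells in Batch 1 (9.18 against 7.23) and Batch 2 (11.8 against 7.14).

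The other genes of the defence were read from a fixed list of 69, of which 66 had a row and 56 passed the filter. Of these, 52 (92.9%) differed among the types, against the background of 67.4% of all genes. The 4 that did not were Ccs, the copper chaperone of Sod1, the thioredoxin Txn2, the glutaredoxin Glrx3 and Keap1 (edgeR adjusted p = 0.44). All tested genes passed among the peroxiredoxins (4 of 4), the glutathione peroxidases (3 of 3), glutathione synthesis (4 of 4), NADPH supply (6 of 6), glutathione transferases (7 of 7), iron and heme genes (8 of 8), other selenoproteins (3 of 3) and oxidant-producing enzymes (7 of 7), as did 1 of 2 copper genes, 5 of 7 thioredoxin genes and 4 of 5 regulators.

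Gpx4, the peroxidase of membrane lipids, was highest in AT1/AT2-like cells (7.79 and 6.61 UMIs per 10000), and Gpx8, of the endoplasmic reticulum, in mesothelial-like cells (4.13 and 3.14). Prdx2, a main peroxiredoxin of red cells, was highest in erythroid-like cells (4.73 and 6.83) and Prdx5 in neutrophil-like cells (6.71 and 9.91), the type with the least Prdx1. Txn1, the thioredoxin that Txnrd1 reduces, was highest in macrophage-like cells (5.71 and 6.69), and its inhibitor Txnip in arterial-like cells (4.11 and 5.84). Gclc, the catalytic subunit that starts glutathione synthesis, was highest in AT2-like cells (1.65 and 2.44), and its partner Gclm in lymphatic endothelial-like cells (4.08 and 5.33). Atox1, a copper chaperone, was also highest there (5.54 and 6.02).

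The AT2-like cells stood first for Nfe2l2 (1.93 and 4.39) and for the microsomal transferase Mgst1 (6.83 and 6.24). Gstm1, another transferase, was highest in aerocyte-like cells (1.85 and 4.30), as was the selenium carrier Sepp1 (10.6 and 17.4), while Sepw1 was highest in matrix fibroblast 2-like cells (3.62 and 2.35). Cyba, a membrane subunit of the phagocyte oxidase, was highest in macrophage-like cells (14.1 and 10.9), as were the ferritin genes Fth1 (62.2 and 84.2) and Ftl1 (54.2 and 19.0). Hmox1, which degrades heme, was highest in monocyte-like cells (0.56 and 2.51). The pentose phosphate enzymes Taldo1 and Tkt were highest in monocyte-like (8.39 and 4.66) and neutrophil-like cells (1.68 and 2.83), and Bach1, a repressor of Hmox1, in neutrophil-like cells (2.94 and 1.14). Xdh, a source of superoxide, was highest in matrix fibroblast 1-like cells (0.76 and 1.28). Keap1 was listed highest in aerocyte-like cells (0.93 and 1.00), without a difference among types that passed.

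The genes whose pattern was most like that of a member were taken from 7114 genes by Pearson's r of log2 CPM over the 18 types, which share 2 libraries, as a description. For Prdx6 they were its copy Prdx6b (0.96) and Klf5 (0.95), for Gpx3 Ednra (0.94) and Gfra2 (0.93), and for Sod1 Tmem248 (0.88) and Pfkfb2 (0.83). Prdx1 was most like Gins1 (0.89) and Ndufc1 (0.88), Gpx1 like Tuba4a (0.85) and Creg1 (0.84), and Cat like Slc3a2 (0.85) and Prdx3 (0.82). Sod2 was most like Dhrs3 (0.83) and Cox7a2l (0.82), Txnrd1 like Pgm2 and Sars (0.85 each), and Sod3 like Dpt (0.86) and Sfrp1 (0.83). The Sod3 pattern rests on 164 UMIs, with 0 in several types, so its likeness to other genes is uncertain. Between members, r was highest for Sod1 and Prdx6 (0.75) and lowest for Gpx3 and Txnrd1 (-0.45).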

How the data were processed

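Whole lung cells of 2 mice (Batch 1 and Batch 2, the only replicates) were measured by Drop-seq. The authors aligned reads to mm10 with Bowtie2 2.2.7 and deposited unnormalized counts of unique UMIs per gene and cell over exons. All values were whole numbers, and counting error alone is covered by floors and intervals of shares. The deposited counts do not correct for free RNA, no doublets were called, and alignments to a single location can misplace reads of near-identical copies.

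Cells with at most 10% mitochondrial UMIs were grouped on 2000 variable genes, z-scored within each batch, without the members, other antioxidant, mitochondrial and hemoglobin genes, with 40 principal components, 15 neighbours and Leiden clustering at a resolution of 2 (leidenalg 0.10.2, Python 3.11.15). Clusters were named from fixed markers, with the suffix -like. The members and lists were chosen with earlier results of these data known, and cell types came from other genes of the same counts. Named genes were every member, the 2 most abundant genes of each group of the antioxidant list with Nfe2l2, Keap1, Gclc and Hmox1, and the 2 genes most like each member in pattern. Sftpc, Hba-a1 and single clusters within a type were named after their values were seen.

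Counts were summed per type and batch for the 18 types with at least 10 cells in each batch, filtered with filterByExpr to 7612 genes, scaled by TMM and fitted in edgeR 4.0.16 (R 4.3.3) by quasi-likelihood with type and batch. Adjusted p-values are Benjamini-Hochberg values over all genes of a contrast. Sums of a batch come from the same mouse, which pairs them, and the deviations of types from the same batch correlated with a median r of 0.142 over 153 pairs (118 above 0.1). In simulated data for AT1 against the other types, with 200 of 7612 genes changed, 103 were found (85.0% at a log2 change of 3 and 35.0% at 1) and 4 of 107 calls were wrong. The simulation differed from the lung data, as all other genes had equal shares in all types and the sums of a batch varied independently. Its rates may therefore not hold for the contrasts reported.

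Alternatives were no replicate block, DESeq2 1.42.0, every gene with at least 1 count, other mitochondrial limits, no cells among the 10% with the most UMIs, a resolution of 1, abundant transcripts left out, each batch left out, detection at 600 UMIs or with at least 2 UMIs and the cell types that the authors listed for part of Batch 1. Library totals in place of TMM were added after the data were seen.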

Additional observations from a re-analysis of the deposited data

How the results depend on the processing

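With 2 batches, each the sum of 1 mouse, the tests rest on a spread shared by all 18 types, and depth limits Sod3, Nqo1, Txnrd1 and Sod2 most. Of the 49 calls of a member in a type (31 higher and 18 lower), 37 remained without the replicate block, where the number of lower calls was 11, and 42 of the 50 calls with library totals were shared. The count of members that differed between AT2-like and AT1-like cells went from 2 to 1 without the replicate block, with DESeq2, with mitochondrial limits of 5% or none and with a cluster resolution of 1. Library totals reversed Sod1 (-1.22) and Prdx6 (-1.01) in erythroid-like cells, which were not called with TMM, and the shift of the median of all genes by -1.41 there is part of that scaling. Thinning to 600 UMIs left the type with the highest detection among the 18 tested the same for 3 of 10 members, whereas the type with the highest level was the same for 7 to 10 members with 1 batch left out, for 10 with a mitochondrial limit of 5%, for 9 with abundant transcripts left out and for 7 of 9 compared with the types listed by the authors. In the batch left when the other was dropped, all 49 type differences and both AT2-like against AT1-like differences kept their direction (49 to 49 and 2 to 2). These differences had been called from both batches together, so that their shared direction is no separate check. The cause of the other changes was not tested. The number of members that differed among types was 8 to 10 and that of the other antioxidant genes 46 to 57 over these settings.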
